A study of Mus musculus with 12 samples.

Results

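The subunits of oxidative phosphorylation were followed in neural cells grown from mouse embryonic stem cells (mESC). They were taken as every array probe whose gene name begins with Nduf or Uqcr, begins with Cox4 to Cox8 or with Atp5, or is Sdha, Sdhb, Sdhc or Sdhd, with the brightest probe standing for its gene. That gave 90 genes on 126 probes, out of 31732 genes or unnamed probes on 39429 probes. Of the 90, 82 code for subunits, namely 36 of complex I (7 core and 29 accessory), 4 of complex II, 8 of complex III, 19 of complex IV and 15 of complex V. The other 8 match by name alone and are counted apart: Ndufaf1, Ndufaf2, Ndufaf3 and Ndufaf4 are assembly factors of complex I, Cox7a2l acts in joining respiratory complexes, Cox4nb codes for a subunit of an endoplasmic reticulum membrane complex, and Atp5s and Atp5sl code for related proteins outside the ATP synthase. Ndufa4, first assigned to complex I, is counted in complex IV.

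Oxidative phosphorylation makes most of the ATP of a resting differentiated cell. Complexes I and II pass electrons from NADH and succinate to ubiquinone, complex III passes them on to cytochrome c, and complex IV gives them to oxygen, while complexes I, III and IV pump protons that drive the rotary ATP synthase, complex V. Mitochondrial DNA encodes part of the cores of complexes I, III and IV and of the proton channel of complex V, and nuclear genes encode all other subunits. Several complex IV subunits exist as a ubiquitous form and a paralogue restricted to heart and skeletal muscle, lung or testis. Pluripotent stem cells are known to lean on glycolysis, and neurons on oxidative phosphorylation.

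The mESC were of C57BL/6 origin and carried an Actin-eGFP transgene, in every group. They passed through 4 days as embryoid bodies and 6 days of selection, followed by 5 days with bFGF at 10 ng/ml (step 4) or, after that, a further 7 days without bFGF and with ascorbic acid at 200 µM (step 5). At each step 3 samples, called biological replicates, were left unsorted (control) and 3 were enriched with magnetic beads for PSA-NCAM, a polysialylated adhesion molecule of immature neural cells, after removal of dead cells. The point in step 5 at which the beads were applied is not given in the sources used here. From each of the 12 samples 100 ng of RNA was labelled with Cy5 and hybridised against Cy3-labelled RNA of undifferentiated mESC, so each value is a log2 ratio to mESC. All 4 groups had 1 array on each of 3 slides, and slide 2 was scanned apart from the others. The p-values measure the spread between these samples.

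Marker lists show what else differed between the groups. Pluripotency genes were less than 1 log2 unit below the mESC level in control cells (median log2 ratio per array -0.90 to -0.68 at step 4 and -0.88 to -0.69 at step 5) and far below it in enriched cells (-5.01 to -3.57 and -4.92 to -2.93), with 14 of 14 lower after enrichment at each step. Germline genes were likewise lower in 6 of 6 cases at each step. Neural progenitor genes were higher in enriched cells for 4 of 9 at step 4 and 5 of 9 at step 5, neuronal genes for 3 of 10 and 9 of 10, and astrocyte and oligodendrocyte genes for 1 of 9 and 7 of 9. Of 7 muscle genes, 2 were lower after enrichment at step 4 and 5 at step 5. Among all genes tested in the same way, 15% were higher and 16.2% lower at step 4, and 20.3% and 20.2% at step 5. The 1 of 9 astrocyte and oligodendrocyte genes at step 4 did not exceed that share, and small lists such as these give imprecise shares. In bulk RNA fewer cells of a type and less RNA per cell cannot be told apart, and the part of these differences in the results below was not tested. Arrays of a group correlated at 0.66 to 0.96 over all genes tested, and the control arrays of slide 2 stood apart most (mean correlation with their own group 0.76 at step 4 and 0.71 at step 5).

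The subunits were among the brightest genes of the arrays. The median over the 90 members of the mean log2 brightness was 14.29, against 8.99 over the 22313 genes tested between groups, and the range ran from 6.84 to 17.05. All 90 passed the filter on dim probes, which asked for Cy5 signal well above background throughout 1 or more groups. No probe of theirs was saturated on any array.

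Promoters of 7 members are shown because these genes either rose at both steps with values given below (Uqcrh, Ndufa5, Ndufa13) or are complex IV genes of the ubiquitous (Cox8a) and tissue-restricted kind (Cox8b, Cox7a1 and Cox7b2) whose values are compared below. Each runs 5′ to 3′ from 250 bases before the start of the gene to 30 after it (RefSeq, GRCm38.p6). Capitals mark CCGGAAG on either strand, the core letters bound by ETS factors such as GABP, or GCGCA and GCGC with any base between them, the palindrome bound by NRF1; both factors are known regulators of nuclear respiratory genes.
Uqcrh, chr4:116075041-116075320, minus strand, 15 CpG: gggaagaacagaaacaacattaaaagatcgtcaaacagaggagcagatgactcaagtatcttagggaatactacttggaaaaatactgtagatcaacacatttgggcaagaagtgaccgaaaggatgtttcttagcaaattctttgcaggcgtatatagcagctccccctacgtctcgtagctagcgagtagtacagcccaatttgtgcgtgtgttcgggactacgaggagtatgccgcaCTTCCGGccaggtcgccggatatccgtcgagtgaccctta
Ndufa5, chr6:24527497-24527776, minus strand, 19 CpG: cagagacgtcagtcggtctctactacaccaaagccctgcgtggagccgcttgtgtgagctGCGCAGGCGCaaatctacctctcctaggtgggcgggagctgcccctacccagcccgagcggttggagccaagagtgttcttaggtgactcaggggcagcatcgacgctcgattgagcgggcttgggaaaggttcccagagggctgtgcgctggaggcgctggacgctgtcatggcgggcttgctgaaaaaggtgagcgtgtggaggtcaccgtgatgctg
Ndufa13, chr8:69901991-69902270, minus strand, 18 CpG: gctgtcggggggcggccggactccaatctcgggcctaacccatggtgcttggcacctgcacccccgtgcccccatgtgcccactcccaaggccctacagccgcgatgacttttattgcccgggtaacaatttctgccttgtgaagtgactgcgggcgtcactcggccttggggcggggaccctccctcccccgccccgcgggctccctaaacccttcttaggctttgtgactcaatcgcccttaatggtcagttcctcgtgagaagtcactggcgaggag
Cox8a, chr19:7217587-7217866, minus strand, 17 CpG: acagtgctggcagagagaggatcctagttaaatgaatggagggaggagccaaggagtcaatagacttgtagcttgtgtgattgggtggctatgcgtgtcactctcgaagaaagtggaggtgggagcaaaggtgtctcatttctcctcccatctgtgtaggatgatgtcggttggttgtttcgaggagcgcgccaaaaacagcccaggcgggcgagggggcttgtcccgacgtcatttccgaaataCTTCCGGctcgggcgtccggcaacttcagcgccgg
Cox8b, chr7:140900417-140900696, minus strand, 1 CpG: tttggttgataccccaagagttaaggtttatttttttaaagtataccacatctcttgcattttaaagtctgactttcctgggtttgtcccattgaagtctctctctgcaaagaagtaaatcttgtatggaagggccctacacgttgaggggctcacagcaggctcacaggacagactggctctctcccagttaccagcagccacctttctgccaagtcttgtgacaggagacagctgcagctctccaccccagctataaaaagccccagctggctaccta
Cox7a1, chr7:30183921-30184200, plus strand, 6 CpG: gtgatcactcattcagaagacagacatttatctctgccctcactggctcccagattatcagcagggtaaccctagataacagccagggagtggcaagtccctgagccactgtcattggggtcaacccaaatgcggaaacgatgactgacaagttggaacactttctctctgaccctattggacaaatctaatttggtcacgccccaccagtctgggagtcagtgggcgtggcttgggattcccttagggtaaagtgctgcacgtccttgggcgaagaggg
Cox7b2, chr5:71548176-71548455, minus strand, 10 CpG: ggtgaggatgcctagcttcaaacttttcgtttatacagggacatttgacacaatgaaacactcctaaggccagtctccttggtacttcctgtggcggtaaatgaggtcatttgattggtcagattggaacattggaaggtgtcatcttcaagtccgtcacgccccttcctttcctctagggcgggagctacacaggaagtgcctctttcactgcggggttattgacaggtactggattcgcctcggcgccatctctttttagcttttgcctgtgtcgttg

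In these windows the ETS letters stand in Uqcrh and Cox8a and the NRF1 letters in Ndufa5, while Ndufa13, Cox8b, Cox7a1 and Cox7b2 hold neither. Among the 74 members found in the RefSeq promoter table, 16 (21.6%) held the NRF1 letters and 16 (21.6%) the ETS letters, against 4.57% and 8.7% of all 27025 promoters of the same length. The YY1 letters AAGATGGC, whose first 3 can overlap the end of the ETS letters, stood in 3 members (4.05%) against 2.38%. At least 1 of these motifs stood in 29 of 63 subunits that are not tissue-restricted (46%), in 0 of 4 tissue-restricted paralogues (Cox6b2, Cox7a1, Cox7b2 and Cox8b), and in 14.3% of all promoters. The windows differ in base composition too: the median number of CpG was 18 in the members, 7 in all promoters and 1 to 10 in the 4 paralogues. A match of letters is a description of the window and not a binding site.

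At step 4, PSA-NCAM enrichment came with higher levels of part of the respiratory chain. Of the 90 members, 24 were higher and 7 lower in enriched than in control cells (limma, adjusted p at most 0.05, n = 3 per group), where 15% of all genes tested were higher and 16.2% lower. The median difference was 0.16 on the log2 scale for the members and 0.01 for all genes. Enriched arrays lay wholly above control arrays for 41 members and wholly below for 13, against 22% and 24.7% of all genes, and for 36 members the groups overlapped. The higher members were spread over the complexes: 12 of 29 accessory subunits of complex I, 1 of 4 subunits of complex II, 3 of 8 of complex III, 2 of 11 ubiquitous subunits of complex IV, and 1 of 5 F1 and 4 of 10 Fo and stalk subunits of complex V. None of the 7 core subunits of complex I passed in either direction; 1 had an unadjusted p under 0.05.

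Uqcrh, the hinge protein of complex III that sits beside cytochrome c1, had the largest rise at step 4. Its log2 ratios to mESC were 0.79, 0.69 and 0.69 on the control arrays of slides 1, 2 and 3 and 1.47, 1.77 and 1.49 on the enriched arrays, a difference of 0.85 (SE 0.11, adjusted p = 0.000533, 1.81-fold). The groups did not overlap, and the control arrays too were above mESC. Ndufv3, an accessory subunit of the NADH-oxidising arm of complex I, read -0.32, -0.33 and -0.01 in control cells and 0.40, 0.66 and 0.58 in enriched cells (0.76, SE 0.15, adjusted p = 0.00392). Its brightest probe went from below to above mESC, while a second, dimmer probe of the gene did not pass; averaged over its probes, Ndufv3 differed by 0.50 (adjusted p = 0.0135). Ndufa13, an accessory subunit of the membrane arm also known as GRIM-19, read 0.36, 0.44 and 0.55 against 1.44, 1.10 and 1.04 (0.75, SE 0.16, adjusted p = 0.00597). Ndufa5, an accessory subunit of the peripheral arm, read 0.71, 0.32 and 0.86 against 1.39, 1.26 and 1.38 (0.71, SE 0.16, adjusted p = 0.00938). Atp5h, the d subunit of the peripheral stalk of the ATP synthase, read 0.22, 0.08 and 0.35 against 0.85, 1.02 and 0.89 (0.70, SE 0.11, adjusted p = 0.00185), and both of its probes passed. In all these genes every enriched array lay above every control array.

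**Figure D1:**
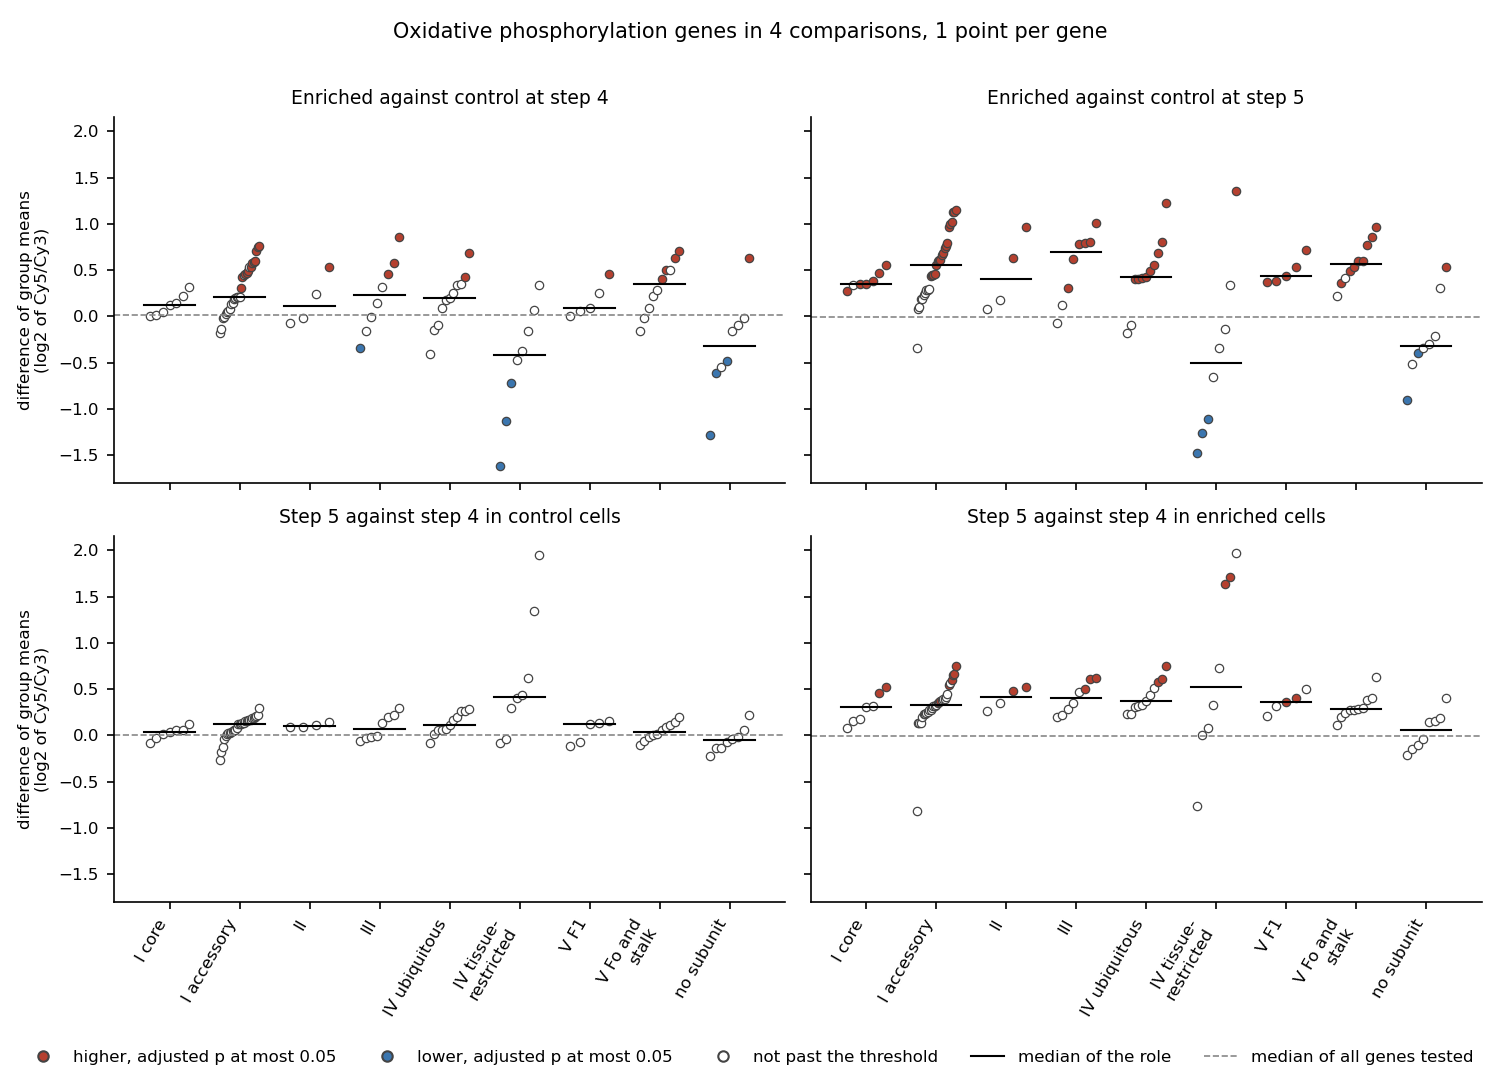
Differences of group means (log2 of the Cy5 to Cy3 ratio, vertical axis) of the 90 members by role in the 4 comparisons of groups, 1 point per gene. Filled points passed limma's adjusted p of 0.05, solid bars are role medians and the dashed line is the median of all genes tested; at step 5 the bars of all subunit roles but the tissue-restricted one lie between 0.35 and 0.70.

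Not all parts of a complex passed together. In complex II, Sdhb, the iron-sulfur subunit, rose at step 4 from 0.18, 0.04 and 0.29 to 0.60, 0.77 and 0.76 (0.54, SE 0.12, adjusted p = 0.0077). The flavoprotein subunit Sdha, which binds succinate beside it, read 0.07, -0.09 and 0.08 against -0.09, 0.01 and -0.07, so that its groups overlapped. In complex III, Uqcrfs1, the Rieske iron-sulfur protein, rose from -0.27, -0.53 and -0.20 to 0.27, 0.23 and 0.24 (0.58, SE 0.14, adjusted p = 0.0103). The core protein Uqcrc1 fell by 0.35, from -0.30, -0.16 and -0.30 to -0.47, -0.75 and -0.59 (SE 0.10, adjusted p = 0.0282). That fall did not pass without control replicate 1 (adjusted p = 0.0527), control replicate 2 (0.102), enriched replicate 2 (0.107) or enriched replicate 3 (0.0705), and over all alternative settings its adjusted p ran from 0.0154 to 0.107. Uqcrc1 was the only subunit outside the tissue-restricted set that was lower after enrichment at either step.

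At step 5 the shift covered most of the chain. Of the 90 members, 57 were higher and 5 lower in enriched than in control cells, where 20.3% of all genes were higher and 20.2% lower (limma, n = 3 per group). The median difference was 0.43, against -0.01 for all genes. Enriched arrays lay wholly above control arrays for 62 members and wholly below for 6, against 25.6% and 25.5% of all genes. By role, 6 of 7 core and 19 of 29 accessory subunits of complex I were higher, as were 2 of 4 of complex II, 6 of 8 of complex III, 9 of 11 ubiquitous subunits of complex IV, 5 of 5 F1 subunits and 8 of 10 Fo and stalk subunits of complex V. The median differences of these roles ran from 0.35 in the core of complex I to 0.70 in complex III. No subunit of complexes I, II, III or V was lower. The count of 5 lower members was 3 without control replicate 3, enriched replicate 1 or enriched replicate 3.

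Cox6a1, the ubiquitous form of a nuclear-encoded complex IV subunit, had the largest rise among the subunits not restricted to a tissue. It read 0.34, 0.39 and 0.47 in control cells and 2.07, 1.30 and 1.50 in enriched cells (1.23, SE 0.19, adjusted p = 0.000961, 2.34-fold). At step 4 the same gene had read 0.06, 0.37 and 0.16 against 1.09, 0.94 and 0.60 (0.68, SE 0.19, adjusted p = 0.024); that call was lost without control replicate 1 (0.0754), control replicate 3 (0.0573), enriched replicate 1 (0.0695) or enriched replicate 2 (0.073), over a range of 0.00834 to 0.0754 under all alternatives. Groups did not overlap at either step. Ndufa13 read 0.54, 0.65 and 0.66 against 2.09, 1.63 and 1.56 (1.15, SE 0.16, adjusted p = 0.000417). Ndufc2, a membrane-arm subunit of complex I, read 0.27, -0.21 and 0.40 against 1.31, 1.24 and 1.30 (1.13, SE 0.19, adjusted p = 0.00113). Ndufv3 read 0.17, -0.20 and 0.25 against 1.10, 1.19 and 1.31 (1.13, adjusted p = 0.000323). These 3 genes stood 2.18-fold to 2.21-fold higher in enriched cells, with no overlap of the groups. Ndufc2 had missed the threshold at step 4 (0.53, adjusted p = 0.0502) and passed there with the slides paired (0.0131).

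The core and catalytic subunits of complexes I and V passed at step 5 with small differences. Ndufs1, the largest core subunit of complex I, read -0.06, -0.06 and 0.04 in control cells of step 5 and 0.36, 0.26 and 0.11 in enriched cells (0.27, SE 0.10, adjusted p = 0.0434). Ndufv1, which binds NADH, read -0.20, -0.10 and -0.14 against 0.34, 0.19 and 0.10 (0.35, adjusted p = 0.0235). Atp5b, the catalytic beta subunit of the ATP synthase, read 0.21, 0.03 and 0.25 against 0.85, 0.49 and 0.31 (0.38, SE 0.13, adjusted p = 0.0398). In each of the 3 genes all enriched arrays were above all control arrays, by small margins. Atp5a1, the alpha subunit, read 0.04, 0.09 and 0.04 against 0.50, 0.65 and 0.32 (0.43, adjusted p = 0.0163). Several of these calls did not hold under other settings: of 27 alternatives, 17 lost Ndufs1 (adjusted p up to 0.394, difference down to 0.14), 14 lost Atp5b (up to 0.137, down to 0.23) and 7 lost Ndufv1 (up to 0.0804). Leaving out 1 array lost Ndufs1 in 11 of 12 cases, Atp5b in 10, Ndufv1 in 3, and Atp5a1 in 1, step 5 enriched replicate 2 (0.0597). The difference between core and accessory subunits was not tested.

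The proton-carrying c subunit of the ATP synthase has 3 genes for the same mature protein. Atp5g3 read 0.78, 0.00 and 0.46 in control cells of step 5 and 1.49, 1.04 and 1.02 in enriched cells (0.77, SE 0.20, adjusted p = 0.0118). Atp5g1 read 0.58, 0.06 and 0.42 against 1.09, 0.65 and 0.56 (0.41, adjusted p = 0.0699), and passed with the slides paired (0.0243). Atp5g2 read 0.41, 0.41 and 0.52 against 0.73, 0.62 and 0.63 (0.22, adjusted p = 0.0718). Control replicate 2 was lowest in Atp5g3 and Atp5g1, where the groups of Atp5g1 overlapped and those of Atp5g3 and Atp5g2 did not. Whether the 3 genes differ from each other was not tested. In complex III, Uqcrfs1 read -0.21, -0.56 and -0.31 against 0.68, 0.35 and 0.31 (0.81, adjusted p = 0.00131), and Uqcrc1 -0.28, -0.32 and -0.35 against -0.34, -0.30 and -0.52 (adjusted p = 0.627). In complex II, Sdhb read 0.34, 0.18 and 0.26 against 1.20, 1.42 and 1.06 (0.97, adjusted p = 0.000248) and Sdha 0.10, 0.09 and 0.20 against 0.27, 0.28 and 0.10 (0.08, adjusted p = 0.515). So of these pairs within a complex, Sdhb and Uqcrfs1 passed at both steps and Sdha at neither.

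All 24 members higher at step 4 were higher at step 5 too, 33 more passed at step 5 alone, 5 were lower at both steps (Cox7a1, Cox7b2, Cox8c, Atp5s and Ndufaf1), and 0 went past the threshold in opposite directions. The step 4 and step 5 comparisons share the mESC reference and the slides. Deviations of same-numbered samples correlated across the steps at 0.46 to 0.75 in controls and 0.34 to 0.41 in enriched cells. The comparisons are therefore not independent. Over the 90 members their differences correlated at r = 0.89 and rho = 0.90, as a description, without a value over all genes beside it. The difference was larger at step 5 for 83 of 90 members, with a median gap of 0.26 against -0.01 for all genes. In the test of that gap itself, 0 of 22313 genes passed (0%; 1574 had an unadjusted p under 0.05), and 0 of 90 members (17 with an unadjusted p under 0.05). A larger effect at step 5 was therefore not shown for any single member. The members past neither threshold number 26, among them the complex I subunits Ndufa6, Ndufa7, Ndufa9, Ndufa10, Ndufa11, Ndufab1, Ndufb4, Ndufb6, Ndufs4, Ndufs6 and Ndufv2. Ndufa11 has a value on only 2 of the step 4 control arrays.

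**Figure D2:**
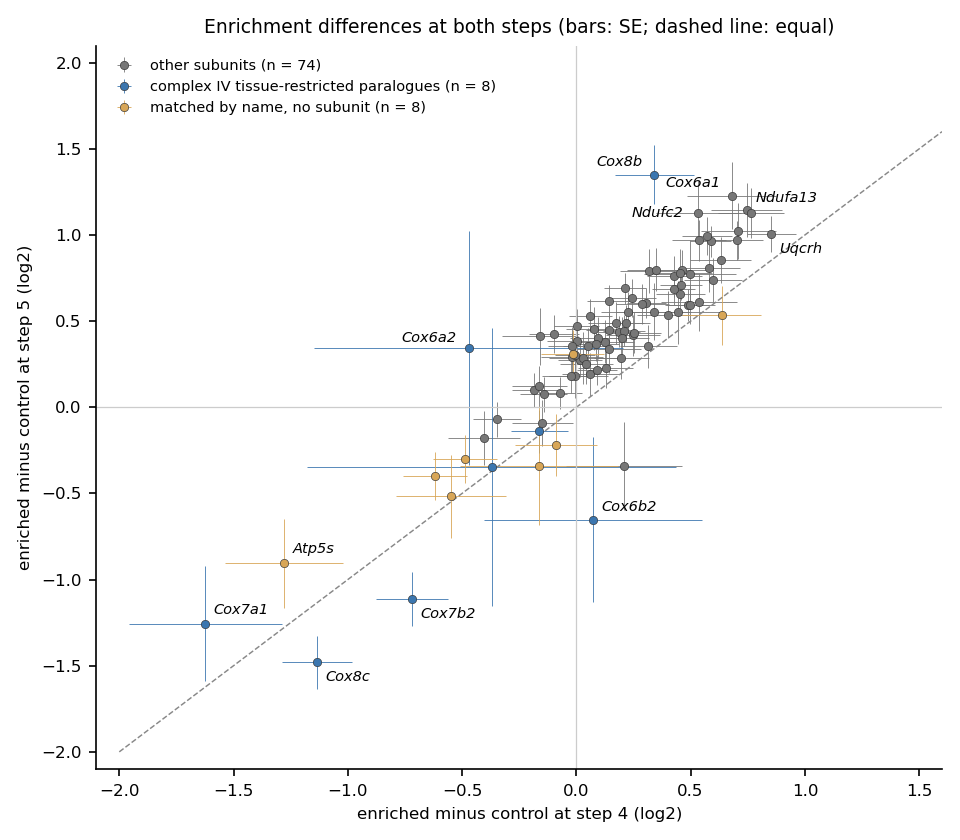
Each point is 1 of the 90 members, with its difference between enriched and control cells at step 4 on the horizontal and at step 5 on the vertical axis (log2 scale), bars showing the SE and the dashed line equal differences. Of the 90, 83 lie above that line, and Cox7a1, Cox7b2 and Cox8c lie far down on the left.

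Since the members are bright, their counts were set beside those of all bright genes, the members among them. Among the members, brightness and the enrichment difference correlated at r = 0.55 at step 4 and 0.57 at step 5, across genes that share the arrays. Of the 45 members at or above the members' median brightness, 37 were higher in enriched cells of step 5, and of all 1375 genes tested at or above that brightness, 203 (14.8%). Their median differences were 0.60 and -0.05. At step 4 the counts were 19 of 45 and 151 of 1375 (11%).

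Of the 8 tissue-restricted paralogues of complex IV, 3 were lower in enriched cells at each step (Cox7a1, Cox7b2 and Cox8c), 1 was higher, at step 5 (Cox8b), and 4 passed at neither step. No paralogue was tested against its ubiquitous partner. Cox7a1, the heart and skeletal muscle form of subunit 7a, read -1.65, -1.73 and -1.54 in step 4 control cells and -3.51, -3.00 and -3.29 in enriched cells (fell by 1.62, SE 0.33, adjusted p = 0.00567, 3.08-fold lower). At step 5 it read -0.16, -0.96 and 0.23 against -1.43, -1.01 and -2.23 (fell by 1.26, adjusted p = 0.013, 2.39-fold lower). Enriched arrays lay below control arrays at both steps, and at step 5 only just for replicate 2. Its ubiquitous partner Cox7a2 read 0.10, -0.03 and -0.04 against 0.51, 0.53 and 0.20 at step 5 (0.40, SE 0.12, adjusted p = 0.0237; lost under 8 of 27 alternatives, with adjusted p up to 0.107) and -0.14, -0.23 and 0.09 against 0.11, 0.02 and 0.17 at step 4, where the groups overlapped. At step 5 the summed Cy5 signal of the 7 muscle markers was lower in enriched cells too. It was 6081 to 14856 per array against 25889 to 48461 in control cells. The markers' median log2 ratio per array overlapped there, at 0.21 to 0.91 in enriched and 0.15 to 2.16 in control cells. At step 4 their sums overlapped (8227 to 51518 against 13630 to 40857), and their median log2 ratio per array was 0.90 to 2.33 in enriched and 0.44 to 1.23 in control cells. The part of the markers in the fall of Cox7a1 was not tested.

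Cox8c and Cox7b2 are forms known from the testis. Cox8c read 0.26, 0.30 and -0.08 in step 4 control cells and from -1.02 to -0.91 on the 3 enriched arrays, where its signal was not well above background on any array. The log2 ratio fell by 1.13 (adjusted p = 0.000735). On the Cy5 channel alone, which is open to dye bias and is not the scale of that test, control cells stood at least 2.53-fold higher, taking for the dim group the lowest signal among probes well above background on each array, or the probe's own if higher. At step 5 it read 0.66, 0.54 and 0.57 against -1.05, -0.55 and -1.07 (fell by 1.48, adjusted p = 0.00012), above background on 1 of 3 enriched arrays. Cox7b2 read -1.12, -0.82 and -0.88 against -1.97, -1.41 and -1.59 at step 4 (fell by 0.72, adjusted p = 0.00757) and -0.45, -0.76 and -0.40 against -1.69, -1.70 and -1.57 at step 5 (fell by 1.11, adjusted p = 0.000514), above background on 1 of 3 arrays of each enriched group. Neither gene's groups overlapped at either step. Since these signals lie near background, the sizes follow the background handling. The difference for Cox8c ran from -4.58 to -1.06 at step 4 and from -4.49 to -1.39 at step 5. That for Cox7b2 ran from -2.26 to -0.56 and from -3.36 to -1.04. The calls held under the 26 alternatives that kept these genes. A filter asking for Cy5 above background on all 12 arrays dropped both, at 7 arrays for Cox8c and 8 for Cox7b2. Both entered the test through the control groups alone, so their lower level in enriched cells is not independent of the filter. Cyct, the testis form of cytochrome c, the carrier between complexes III and IV, read 0.00, -0.30 and -0.28 against -5.15, -3.66 and -4.88 at step 4 (20.7-fold lower, adjusted p = 0.00051) and 0.21, -0.56 and 0.42 against -4.34, -2.20 and -4.02 at step 5 (11.6-fold lower, adjusted p = 0.000796). The 6 germline markers fell too. Their summed Cy5 signal was 16194 to 24184 in control and 697 to 1430 in enriched cells of step 4. At step 5 it was 26007 to 74651 and 1913 to 8437. The 14 pluripotency genes fell as well, with sums of 184035 to 210853 in control and 23743 to 39550 in enriched cells of step 4. Their step 5 sums were 205542 to 226517 and 29880 to 57092. The part of either list in the falls of Cox8c, Cox7b2 and Cyct was not tested.

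Cox8b, the heart and skeletal muscle form of subunit 8, went the other way. Its signal was not well above background on any step 4 control array, and its log2 ratio in step 4 enriched cells was 0.34 higher without passing the test (adjusted p = 0.161). At step 5 it read 0.47, 1.00 and 0.39 in control and 1.76, 2.27 and 1.88 in enriched cells (1.35, SE 0.17, adjusted p = 0.000317, 2.55-fold higher). With the scanner's own log ratio the difference was 2.09 and the call was lost (adjusted p = 0.053), as it was with the deposited table (0.0531), in a range of 7.2e-05 to 0.0531 over all alternatives. Its ubiquitous partner Cox8a read 0.25, 0.53 and 0.41 against 1.38, 1.18 and 1.04 (0.80, SE 0.13, adjusted p = 0.00093). Neither gene's groups overlapped at step 5. At step 5 Cox8b was higher while 5 of the 7 muscle markers were lower, though their median log2 ratios per array overlapped between the groups. Cox8b and Cox7a1, both known from muscle, passed there in opposite directions.

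**Figure D3:**
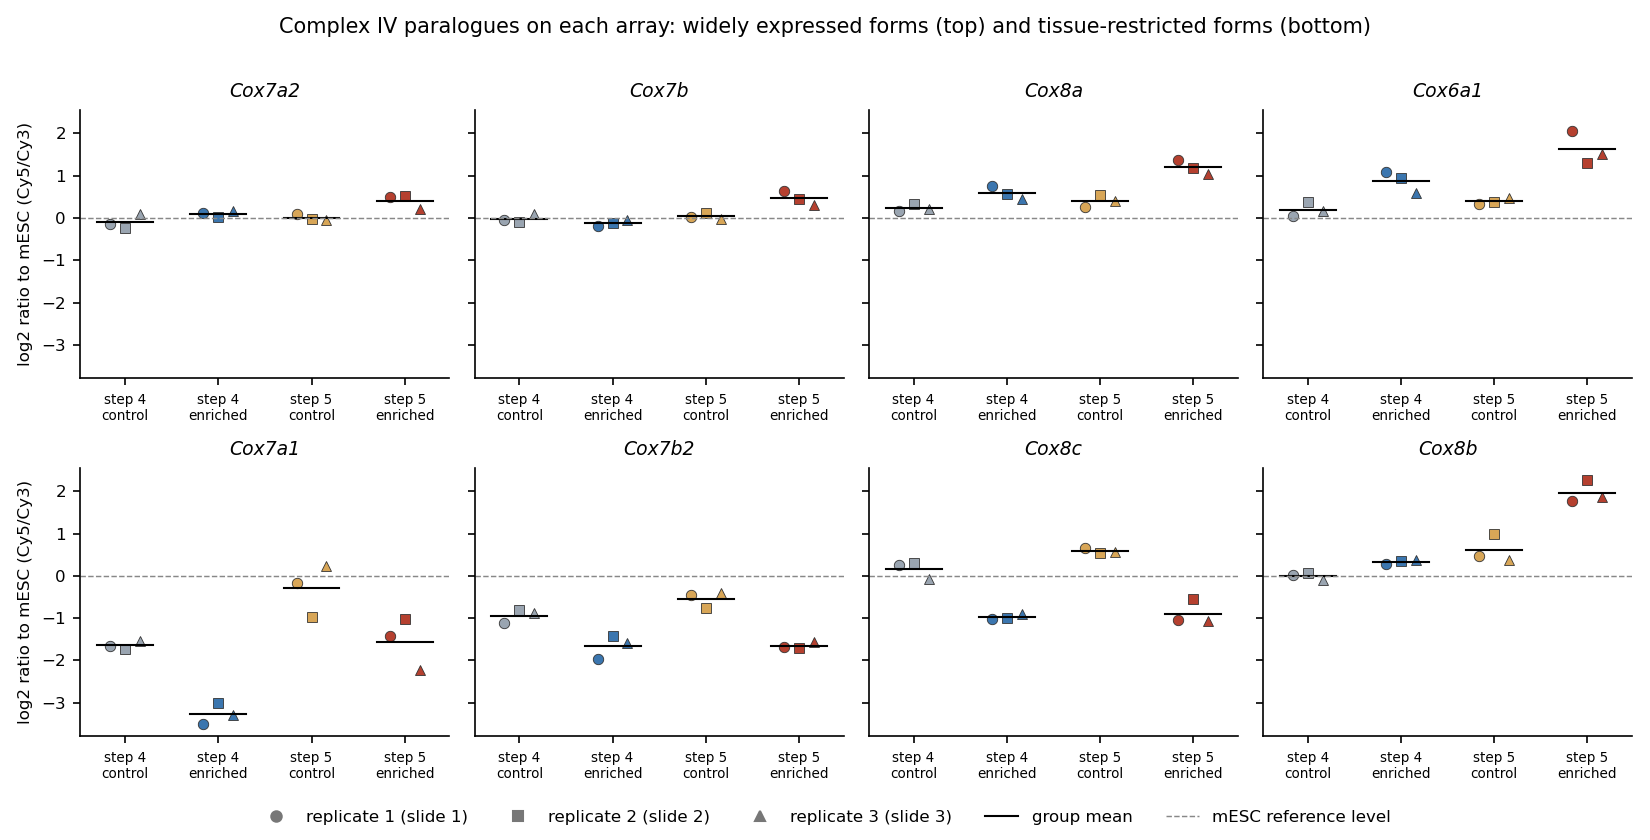
Log2 ratio to mESC on each array by group for 4 widely expressed complex IV genes (top) and 4 tissue-restricted ones (bottom); symbols mark the slides, bars are group means and the dashed line is the mESC level. Cox7a1, Cox7b2 and Cox8c sit lower in enriched than in control cells at both steps, while Cox8b reaches 1.76 to 2.27 in step 5 enriched cells.

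The other paralogues passed at neither step. Cox6a2, the muscle form of subunit 6a, was far above mESC in every group: 3.00, 3.33 and 2.83 in step 4 control cells, 2.81, 1.94 and 2.99 in enriched cells, 2.08, 4.55 and 2.26 in step 5 control cells and 2.89, 4.58 and 2.46 in enriched cells. Slide 2 was the highest of the 3 slides in both step 5 groups. Ndufa4l2, a paralogue of Ndufa4 known to be induced by hypoxia, read -1.79, -2.23 and -1.81, then -2.48, -2.42 and -2.04 at step 4, and 0.64, -1.71 and 1.11, then -2.18, 0.31 and 0.86 at step 5. At step 5 the arrays of each group thus spread over more than 2 log2 units, with control replicate 2 and enriched replicate 1 at the step 4 level. Cox6b2, a testis form, ranged from -1.19 to 1.34 over the arrays, and Cox4i2, the lung form of subunit 4, from -0.33 to 0.33. Cox4i1, the ubiquitous partner of Cox4i2, rose at step 4 from -0.42, -0.21 and -0.32 to 0.15, 0.17 and 0.00 (0.43, adjusted p = 0.00754) and at step 5 from -0.24, -0.21 and -0.30 to 0.49, 0.41 and 0.42 (0.69, SE 0.09, adjusted p = 0.000415), without overlap. Ndufa4 (0.56, adjusted p = 0.0212), Cox6b1 (0.49, adjusted p = 0.00999), Cox7b (0.42, adjusted p = 0.0112) and Cox5b (0.40, adjusted p = 0.0232) passed at step 5 and not at step 4. Ndufa4 was lost under 7 of 27 alternatives (adjusted p up to 0.0713) and Cox5b under 5 (up to 0.0828). Cox5a, a subunit on the matrix side, did not: its step 4 values were -0.44, -0.26 and -0.49 against -0.86, -0.65 and -0.89 (adjusted p = 0.0739) and those of step 5 -0.15, -0.19 and -0.01 against -0.06, -0.15 and -0.67 (adjusted p = 0.399).

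Among the names that are no subunit, 1 was higher and 3 were lower at step 4, and 1 higher and 2 lower at step 5. Cox7a2l read -0.20, 0.18 and -0.11 against 0.66, 0.62 and 0.50 at step 4 (0.64, adjusted p = 0.0188) and -0.28, 0.30 and 0.04 against 0.32, 0.79 and 0.55 at step 5 (0.53, adjusted p = 0.0301). Atp5s fell by 1.28 at step 4, from -0.33, 0.40 and -0.07 to -1.16, -1.37 and -1.31 (adjusted p = 0.005), and by 0.91 at step 5, from -0.71, 0.12 and -0.08 to -1.46, -0.74 and -1.19 (adjusted p = 0.0175). Ndufaf1, which helps assemble the membrane arm of complex I, fell by 0.62, from 0.13, -0.07 and -0.26 to -0.51, -0.59 and -0.95 (adjusted p = 0.00904), and by 0.40, from -0.16, -0.17 and -0.09 to -0.54, -0.42 and -0.66 (adjusted p = 0.0432). The step 5 calls of these genes were lost when single arrays were left out, for Ndufaf1 in 8 of 12 cases (0.0506 to 0.136), for Atp5s in 4 (0.0526 to 0.065) and for Cox7a2l in 4 (0.0628 to 0.105). Cox7a2l at step 4 was lost in 3 (0.0507 to 0.0646).

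Between step 4 and step 5 control cells, no member passed the test, and between the enriched groups 21 did. In control cells 0 of 22313 genes passed (0%; 1917 had an unadjusted p under 0.05), and 0 of 90 members (9 with an unadjusted p under 0.05), with a median of 0.08 against 0.01 for all genes. Step 5 control arrays lay wholly above step 4 control arrays for 21 members and wholly below for 1, against 7.32% and 5.22% of all genes. The largest differences there were 1.95 for Ndufa4l2 (adjusted p = 0.516) and 1.34 for Cox7a1 (adjusted p = 0.23), and Cox7a1 passed without step 5 control replicate 2 (0.0278), over a range of 0.0278 to 0.809 under all alternatives. In enriched cells, 21 members were higher at step 5 than at step 4 and 0 lower, where 3.96% of all genes were higher and 2.46% lower, with a median of 0.32 against -0.00315 for all genes. The enriched arrays of step 5 lay wholly above those of step 4 for 60 members, against 14.4% of all genes. The count of 21 was 12 without step 4 enriched replicate 1, 5 without replicate 2 and 8 without replicate 3 of that group, and 9 and 7 without step 5 enriched replicates 1 and 2. With the slides paired, Ndufab1, the acyl carrier of complex I, was 1 lower member (-0.82, adjusted p = 0.0141, against 0.0874 without pairing). The 21 comprised 9 of 36 complex I subunits, 2 of 4 of complex II, 3 of 8 of complex III, 5 of 19 of complex IV and 2 of 15 of complex V.

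Cox7a1 rose by 1.71 between the enriched groups (SE 0.33, adjusted p = 0.0162), from the values of -3.51, -3.00 and -3.29 to -1.43, -1.01 and -2.23, and stayed below mESC on all 6 arrays. Without step 5 enriched replicate 2 its adjusted p was 0.0522, in a range of 0.00666 to 0.0522 over the alternatives. Cox8b read 0.28, 0.36 and 0.37 in step 4 enriched cells and rose by 1.63 (adjusted p = 0.00157, 3.1-fold). With the scanner's own log ratio the rise was 2.97 and the call was again lost, as it was with the deposited table (adjusted p = 0.0544 in both). Ndufc1, a small membrane-arm subunit of complex I, read 0.36, 0.38 and 0.35 at step 4 and 1.03, 1.15 and 0.92 at step 5 (0.67, SE 0.09, adjusted p = 0.0037), a rise that passed under all 27 alternative settings. Its arrays of the 3 other groups all lay between 0.10 and 0.39. Ndufc2 rose from 0.36, 0.45 and 0.78 (0.75, adjusted p = 0.0391) and Cox6a1 from its step 4 level by 0.75 (adjusted p = 0.0484). When 1 array at a time was left out, Ndufc2 was lost in 7 of 12 cases (0.052 to 0.134) and Cox6a1 in 11 (0.0535 to 0.137). Alongside, astrocyte and oligodendrocyte markers rose for 5 of 9 between the enriched groups, with median log2 ratios per array of -0.16 to 1.07 at step 4 and 3.76 to 4.62 at step 5; their part was not tested.

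**Figure D4:**
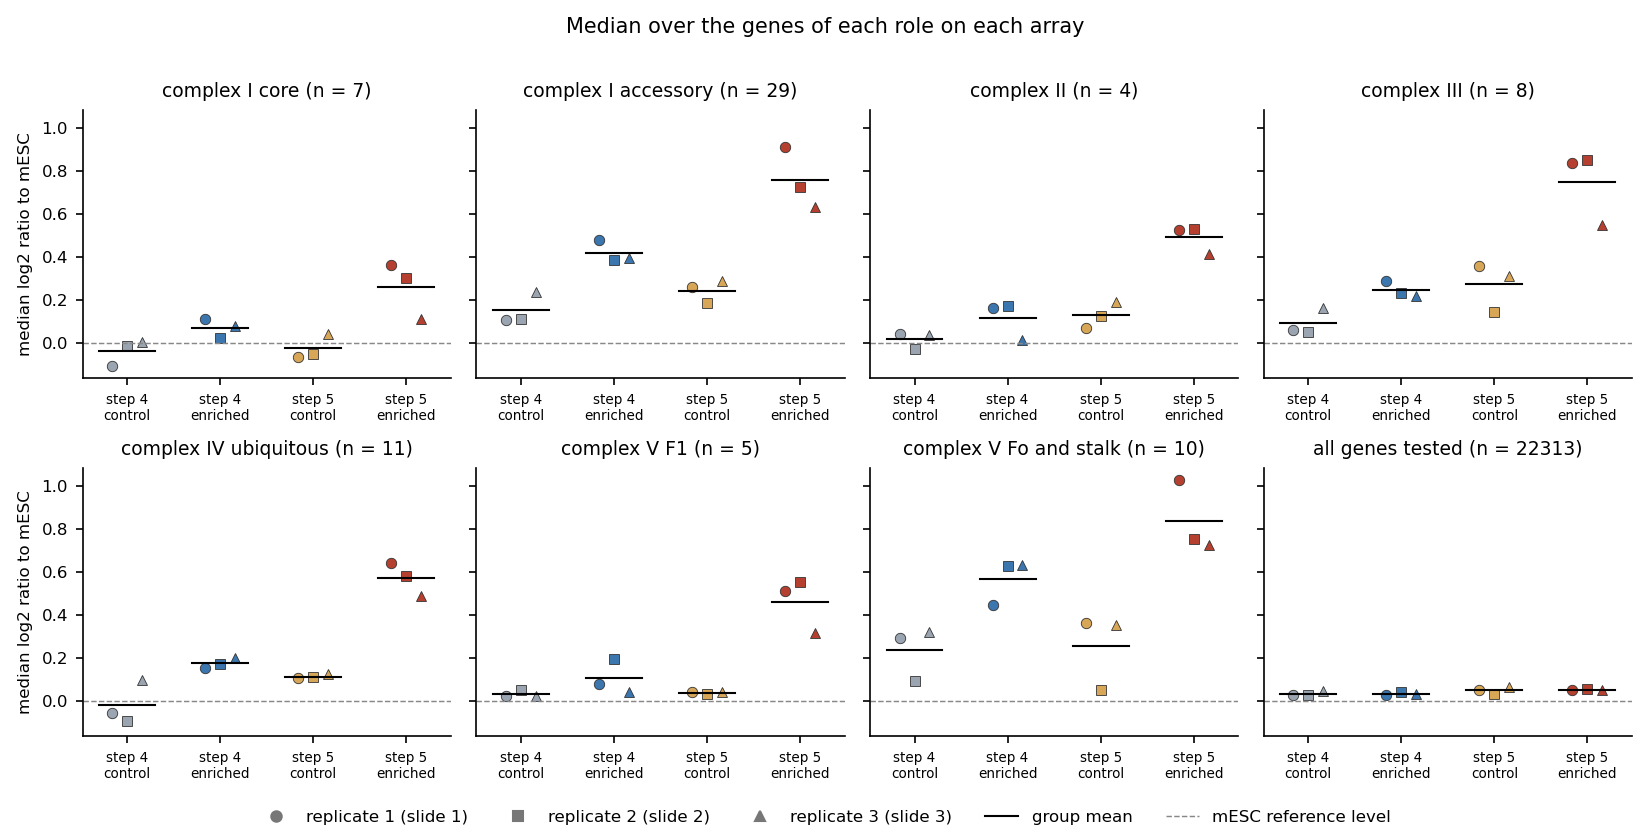
Median log2 ratio to mESC over the genes of 7 subunit roles, and over all 22313 genes tested, on each of the 12 arrays by group; symbols mark the slides and bars are group means. In each of the 7 roles the mean of the step 5 enriched arrays is the highest of the 4 groups, while over all genes the groups lie close together.

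Against mESC themselves, 89 members could be tested, all but Cox8b, whose mESC signal was not well above background on every array; by channel, the step 5 enriched cells stood at least 3.92-fold and the step 5 control cells at least 1.51-fold above it. In step 4 control cells 21 were higher and 12 lower than mESC, where 22% of the 18042 genes tested were higher and 21.1% lower, so that the share of higher members was near that of all genes (median 0.05). The 12 lower were 6 without control replicate 2, and the 21 higher were 12 without control replicate 3. In step 4 enriched cells 48 were higher and 16 lower (32.7% and 37.6% of all genes), in step 5 control cells 32 and 9 (25.4% and 22.9%), and in step 5 enriched cells 69 and 12 (34.6% and 39.5%), with a median of 0.56. All 15 complex V subunits and all 4 complex II subunits were above mESC in step 5 enriched cells, as were 26 of 29 accessory and 5 of 7 core subunits of complex I, 7 of 8 of complex III and 9 of 11 ubiquitous subunits of complex IV. The 4 comparisons share the reference RNA, and so an error of that RNA would enter all of them. The reference is 1 RNA on every array, and these tests leave out its own spread. It was always labelled with Cy3 and the samples with Cy5. A dye bias of a gene therefore cannot be told apart from a difference from mESC.

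The mitochondrially encoded partners of these subunits were also higher in enriched cells. The arrays carry probes named for 8 of these mRNAs: ND1, ND2, ND4 and ND5 of complex I, CYTB of complex III and COX1, COX2 and COX3 of complex IV. The array annotation places 6 on mitochondrial DNA and COX2 and COX3 on chromosome 1, which leaves the target of these last probes uncertain. Their median log2 ratio was 0.64, 0.40 and 0.40 on the step 4 control arrays, 1.61, 1.14 and 0.78 on the enriched arrays, 0.44, 0.67 and 0.64 on the step 5 control arrays and 2.11, 1.91 and 1.93 on the enriched arrays. The enriched arrays were the higher at both steps. CYTB, cytochrome b, read 2.12, 1.15 and 1.51 against 3.37, 2.97 and 2.48 at step 4 (1.35, SE 0.32, adjusted p = 0.011, 2.55-fold) and 1.90, 0.92 and 1.71 against 3.43, 3.06 and 2.98 at step 5 (1.64, adjusted p = 0.00283, 3.13-fold). COX1, the oxygen-reducing subunit, read 0.35, 0.33 and 0.39 against 1.45, 0.95 and 0.78 (0.70, adjusted p = 0.0186) and 0.36, 0.69 and 0.97 against 2.17, 2.07 and 1.90 (1.37, adjusted p = 0.000452). No group overlapped in either gene within a step. At step 4, 6 of the 8 were higher (not ND1 and ND5), and at step 5, 7 (not ND1, at 0.78 with adjusted p = 0.0554). Of all genes tested, 15% were higher and 16.2% lower at step 4, and 20.3% and 20.2% at step 5. ND5, COX1 and COX3 also rose between the enriched groups (1.03, 0.99 and 0.70; adjusted p = 0.0269, 0.015 and 0.031). With Cyct, Cyc1, Cycs, Usmg5 and Atpif1, these make 13 further genes of the chain, of which 8 were higher and 1 lower at step 4 and 9 and 1 at step 5.

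**Figure D5:**
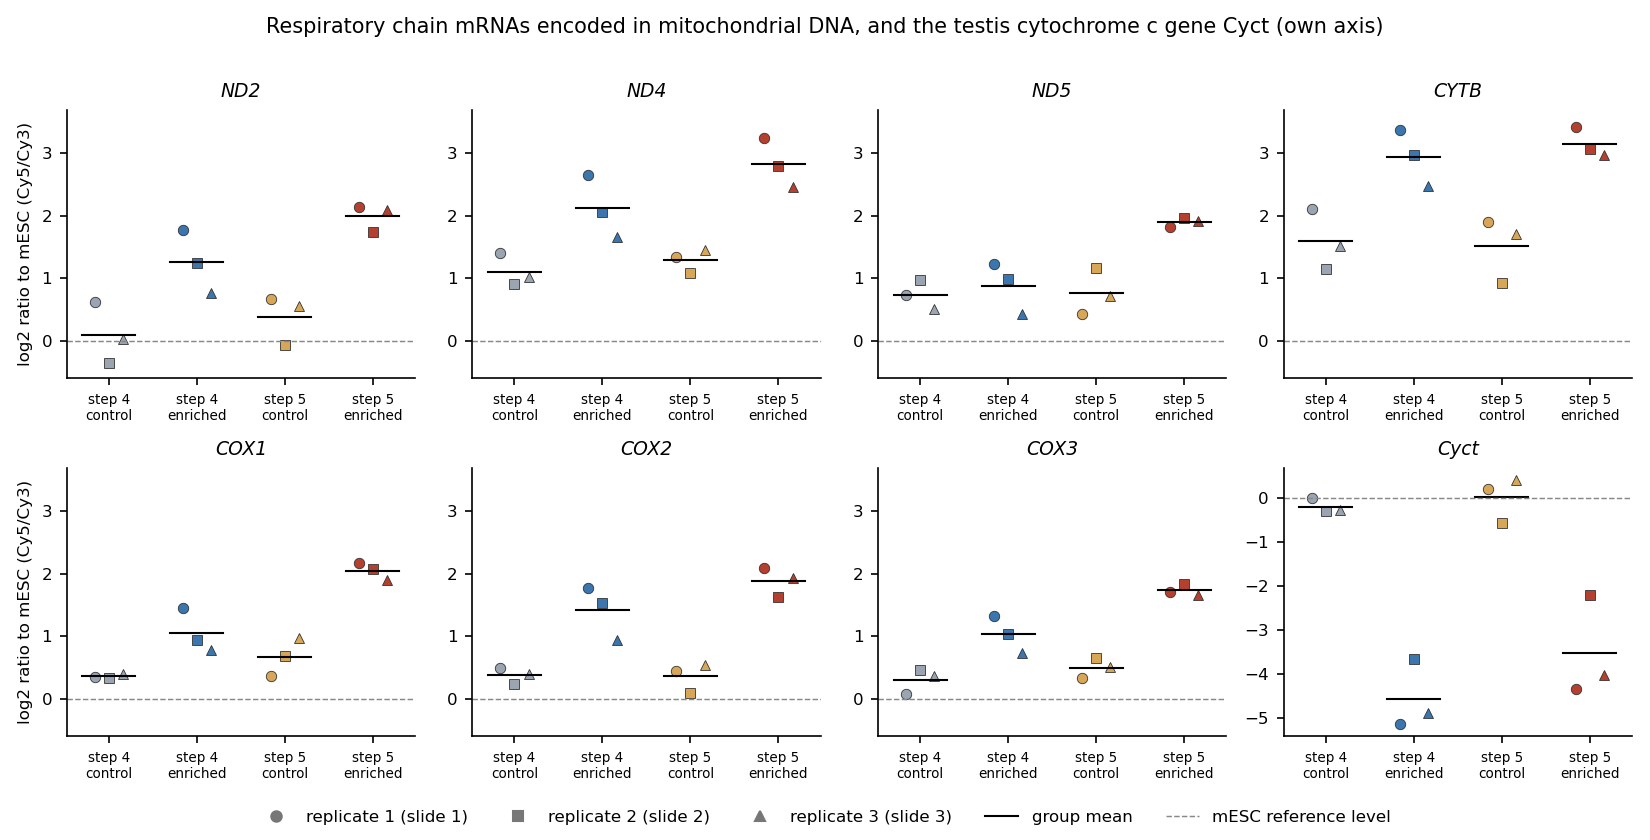
Log2 ratio to mESC of 7 of the 8 mRNAs (ND1 is left out) and, on its own axis, of Cyct on each array by group; symbols mark the slides and bars are group means. CYTB lies between 2.48 and 3.43 on the enriched arrays and between 0.92 and 2.12 on the control arrays, and Cyct runs the other way, down to -5.15.

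The lists of related mitochondrial genes are read against the shares of all genes given above, 15% higher and 16.2% lower at step 4 and 20.3% and 20.2% at step 5. Factors that assemble the complexes passed in both directions. Of 38 tested, 4 were higher and 7 lower at step 4 (median -0.08) and 6 and 6 at step 5 (-0.02). Coa3 and Cox20, which act early in complex IV assembly on COX1 and COX2, rose by 0.80 and 0.88 at step 4 and by 0.92 and 0.93 at step 5. Nubpl, which delivers iron-sulfur clusters to complex I, fell by 1.15 and 1.05, and Cox18, which inserts COX2 into the membrane, by 1.05 and 0.79. Of 17 regulators and enzymes of mitochondrial gene expression, 3 were higher and 5 lower at step 4 (median -0.30) and 2 and 6 at step 5 (-0.44). Tfam, which packages and transcribes mitochondrial DNA, fell by 0.64 (adjusted p = 0.00355) and 0.71 (adjusted p = 0.00127), and the rRNA methyltransferase Tfb1m by 0.84 and 0.99. Esrrg, a nuclear receptor of metabolic genes, rose by 0.64 and 0.77, and the coactivator Ppargc1a by 1.13 at step 5 (adjusted p = 0.0271). Of the factors whose letters were searched in the promoters, named for that reason, Nrf1 was higher at step 4 (0.65, adjusted p = 0.0384), Yy1 was lower at both steps (-0.46 and -0.61), and Gabpa was lower at step 5 (-0.56, adjusted p = 0.00341).

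The citric acid cycle, which feeds the chain with NADH and succinate, was counted together with genes of pyruvate dehydrogenase and pyruvate carboxylase. Of these 19 genes, 5 were higher and 2 lower at step 4 (median 0.04). At step 5, 8 were higher and 1 lower (median 0.40). Citrate synthase, Cs, rose by 0.72 and 0.78, and pyruvate carboxylase, Pcx, by 1.05 and 1.67. Suclg2, the GTP-forming subunit of succinate-CoA ligase, fell by 0.69 and 0.60. Of 22 genes for mitochondrial import, pores, fusion and carriers, 3 were higher and 6 lower at step 4 (median -0.17) and 4 and 6 at step 5 (-0.09). The adenine nucleotide carrier Slc25a4 rose by 0.90 and 1.31 and the fusion protein Mfn2 by 0.90 and 1.10, while the import receptor Tomm20 fell by 0.59 and 0.72 and the inner membrane fusion protein Opa1 by 0.71 and 0.60. Among 4 uncoupling proteins tested, Slc25a14 rose by 0.88 and 0.86, Slc25a27 by 1.49 at step 5, and Ucp2 fell by 0.89 and 0.78. In control cells no gene of these lists passed between the steps, where 0 of all 22313 genes tested passed, so this is not particular to these lists.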

How the data were processed

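Total RNA of 12 samples was read on 2-colour Agilent arrays on 3 slides, without dye swaps, Cy5 for the sample and Cy3 for mESC. The deposited files give intensity per spot and the scanner's log10 ratio, made with Feature Extraction 10.7.3.1 on slides 1 and 3 and 10.5.1.1 on slide 2, per the file headers, which name build mm9. The deposited log2 table of the series equals the scanner's log10 ratio turned to log2 for 99.4% to 99.5% of values within 0.001, and 175 values are missing; its column medians are 0, and its direction is sample over mESC.

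From the mean signals and median backgrounds, normexp (offset 50) and loess within arrays gave log2 ratios (limma 3.58.1, R 4.3.3, data.table, version 1.17.8). Control spots had weight 0 in loess, outlier spots (128 to 298 per array) were set to missing, and replicate spots were averaged per probe. Cy5 was well above background on 25605 to 29078 probes per array. Tests between groups took the 22313 genes for which this held throughout 1 or more groups, and tests against mESC the 18042 of them with Cy3 above background on all 12 arrays. The test was limma's moderated test over all genes on all 12 arrays with a mean per group, two-sided, with Benjamini-Hochberg adjustment and a threshold of 0.05. It was also run on simulated data with independent noise on each array. That run does not cover the correlation between arrays of a slide. The number of arrays limits the precision.

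Same-numbered samples lie on the same slide. Their deviations from the group means correlated at 0.13 to 0.64 within step 4 and 0.19 to 0.36 within step 5. Across the steps the range was 0.46 to 0.75 for both controls and 0.34 to 0.41 for both enriched groups. Step 4 control samples reached 0.25 to 0.33 against the enriched samples of step 5. The lowest range, -0.13 to 0.23, belonged to step 5 controls set beside the enriched samples of step 4. Since the number is also the slide, these values cannot tell samples paired by origin from arrays that share a slide. Pairing by number, that is by slide, was an alternative fit. Blocked values stand beside the results described whose call they change; other calls so changed are listed by gene at the end.

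Members, lists and tests were chosen with earlier results of these data known. Values on every array are given for up to 5 members with the largest rise and fall past the threshold in each comparison and the same sign on all 3 slides, for the paralogue sets of complexes IV and V, and for Ndufs1, Ndufv1, Sdha, Sdhb, Uqcrc1, Uqcrfs1, Cox5a, Cox5b, Atp5a1 and Atp5b; from other lists, up to 3 genes per direction past the threshold. Names are those of slides 1 and 3. The files of slide 2 name 5 of the members' probes otherwise. The array annotation places the brightest probe of Atp5k on chromosome Y, while its promoter lies on chromosome 5, which leaves that probe's target uncertain. Atp5k is counted among the complex V subunits throughout. Of 26 members with several probes, none had probes passing in opposite directions. In the enrichment comparisons, the call differed between probes of a gene for 7 members at step 4 and 7 at step 5. The sign differed for 4 and 2. Lists of endoderm and epithelium (0 higher and 2 lower of 9 at step 4, 0 and 3 at step 5), mesenchyme and fibroblast (2 and 0 of 8, then 0 and 0) and endothelium and blood (0 and 1 of 5 at each step) markers were also read. Alternatives changed the background correction, signal, scaling, filter, probe choice, samples fitted and block, and left out each array. Proteins and genome sequence were not used here.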

Additional observations from a re-analysis of the deposited data

Results flagged for a closer look

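For 4 genes every slide moved one way on enrichment at step 4 and the other way at step 5. The differences at step 4 and step 5 were -0.18 and 0.10 for Ndufa9, 0.21 and -0.34 for Ndufab1, -0.10 and 0.42 for Cox7b, and -0.16 and 0.41 for Atp5g1. In limma's test of the difference between the steps none passed (adjusted p = 0.754, 0.848, 0.435 and 0.652, n = 3 per group). For 3 genes every slide moved one way from step 4 to step 5 in control cells and the other way in enriched cells: -0.12 and 0.13 for Ndufb6, -0.11 and 0.36 for Atp5d, and -0.10 and 0.28 for Atp5f1. That difference did not pass either (adjusted p = 0.912, 0.401 and 0.638).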

How the results depend on the processing

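Direction was followed only for the members chosen to have their values given, in the comparisons of groups (152 results, of which 54 passed). No difference among these that passed the test changed its direction under any alternative. Some that did not pass did, such as Ndufa4l2 (-1.21 to 0.58) and Cox6a2 (-0.29 to 1.14) at step 5 and Cox6b2 (-0.56 to 0.64) at step 4. Over the alternatives other than leaving out 1 array, the count of members higher after enrichment ran from 19 to 30 at step 4 and from 43 to 60 at step 5. Members lower at step 5 numbered 3 where Cy5 had to be above background on all 12 arrays. That filter removes the lower members Cox8c and Cox7b2, above background on 7 and 8 of 12 arrays. Members higher in step 5 than in step 4 enriched cells numbered 8 with the scanner's own log ratio, 8 with the deposited table, 8 with a fit on only the groups compared and 39 with the slide as a random block (consensus correlation 0.22); 1 was lower with the replicate block and 1 with the random block. Without both control arrays of slide 2, an alternative chosen after seeing the data, 5 members were below mESC in step 5 control cells. The cause of the other shifts was not tested. The pairing by slide (replicate block) changed no other call than those of Ndufb7, Ndufc2 and Atp5g3 at step 4, of Ndufa10, Atp5g1 and Ndufaf4 at step 5, and, between the enriched groups, of Ndufa7, Ndufa13, Ndufab1, Ndufs5, Cox4i1, Cox6c, Atp5b, Atp5g1 and Atp5k, among all members and these 3 comparisons. Leaving out 1 array at a time, the members higher and lower after enrichment ranged from 17 to 26 and 5 to 8 at step 4 (median difference 0.13 to 0.22) and from 45 to 55 and 3 to 5 at step 5 (0.39 to 0.51). They ranged from 0 to 1 and 0 to 0 between the control groups (0.04 to 0.12) and from 5 to 24 and 0 to 1 between the enriched groups (0.28 to 0.38). The difference of the enrichment effects had 0 to 0 in both directions (median 0.21 to 0.32). Against mESC the ranges were 12 to 25 and 6 to 12 in step 4 control (median 0.03 to 0.07), 39 to 48 and 13 to 16 in step 4 enriched (0.22 to 0.27), 22 to 34 and 6 to 9 in step 5 control (0.12 to 0.18) and 62 to 69 and 9 to 13 in step 5 enriched cells (0.52 to 0.62). Signal over background limits Cox8b, Cox8c and Cox7b2, the dimmest of the members that passed.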
